A study of Mus musculus with 2 samples.

Results

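Amacrine cells are inhibitory interneurons of the inner retina. Most of these cells release either GABA or glycine, and small classes also make acetylcholine (starburst amacrine cells) or dopamine. Their transmitter classes are read from the enzymes that make a transmitter, the carriers that load or take it up, and a few transcription factors and calcium-binding proteins. A set of 9 such genes was taken by name: Gad1, Gad2 and Slc32a1 for GABA, Slc6a9 for glycine, Chat for acetylcholine, Th for dopamine, the transcription factor genes Tfap2a and Tfap2b, and Calb2, the gene of calretinin. All 9 were found among the 31253 genes of the expression table.

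The data were RNA sequencing values of 2 libraries from C57BL/6 mice. The first came from mouse neural retinal progenitor cells (mNRPCs), which had been isolated from adult retina and grown on Matrigel with basic fibroblast growth factor and the GSK3 inhibitor CHIR99021, and which were collected at passage 24. The second came from whole mouse retina, without culture or treatment named in its labels. The age of the retina donor and the number of animals behind either library are not given in the sources used here, and the mNRPC library is a single culture. Values were in FPKM, the number of fragments divided by transcript length and by the depth of the library, summed over the RefSeq transcripts of a gene. With 1 library per group no difference had a replicate check, no p-value was calculated, and each difference compares these 2 libraries. Depth was estimated from the lowest values at 6.89e+06 fragments in mNRPCs and 5.20e+06 in retina. Intervals given here are 95% intervals of counting error at that depth and cover no other error. A level worth 3 estimated fragments or fewer was read as not detectable at this depth, and a gene at 0 is called only listed at 0, because a 0 can also be a failed estimate.

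Before the levels, the sequences around the start sites of 2 paralog pairs are shown, since the members of each pair differed in mNRPCs. Gad1 and Gad2 encode the enzymes that make GABA from glutamate, and Tfap2a and Tfap2b encode AP-2 transcription factors. The stretches are from RefSeq on GRCm38.p6, run 5′ to 3′ on the strand of the gene, begin 250 bases before the RefSeq start and end where the first GENCODE exon of the gene begins. Capitals mark E-boxes (CANNTG) and the AP-2 motif (GCCNNNGGC). Both motifs read the same on either strand, and no match of one overlapped a match of the other.
Gad1, chr2:70561879-70562041, plus strand: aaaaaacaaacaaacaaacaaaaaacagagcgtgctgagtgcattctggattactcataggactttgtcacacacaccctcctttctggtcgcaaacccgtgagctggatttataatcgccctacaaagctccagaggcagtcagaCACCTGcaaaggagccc
Gad2, chr2:22622077-22622204, plus strand: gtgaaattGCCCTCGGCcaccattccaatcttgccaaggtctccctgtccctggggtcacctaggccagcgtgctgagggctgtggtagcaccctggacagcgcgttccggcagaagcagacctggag
Tfap2a, chr13:40734921-40735170, minus strand: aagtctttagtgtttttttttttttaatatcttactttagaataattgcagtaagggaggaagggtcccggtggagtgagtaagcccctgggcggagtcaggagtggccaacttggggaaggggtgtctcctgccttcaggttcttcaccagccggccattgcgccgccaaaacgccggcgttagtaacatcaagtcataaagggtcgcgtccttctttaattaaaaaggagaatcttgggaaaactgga
Tfap2b, chr1:19211804-19212053, plus strand: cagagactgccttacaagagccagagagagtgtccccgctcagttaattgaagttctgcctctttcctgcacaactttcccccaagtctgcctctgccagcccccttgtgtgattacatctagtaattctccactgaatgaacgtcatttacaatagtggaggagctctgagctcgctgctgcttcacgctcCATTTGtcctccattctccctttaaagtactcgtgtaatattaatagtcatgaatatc

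The Gad1 stretch held 1 E-box and the Gad2 stretch 1 AP-2 motif, while the Tfap2a stretch held neither and the Tfap2b stretch 1 E-box. Within the full 250 bases, Gad2 had 1 E-box and 2 AP-2 motifs. Of 32851 RefSeq promoters, 66.2% held an E-box in such a window and 13.7% the AP-2 motif. RefSeq promoters were found for 8 of the 9 genes, with Calb2 the exception. These genes had 11 such windows, of which 7 held an E-box and 1, that of Gad2, the AP-2 motif.

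The study also followed 3 of the genes by quantitative PCR, with primers for Gad1, Tfap2b and Slc6a9 (named there GLYT1). These primers are shown because they mark the part of each gene that the PCR reads, which can be set beside the transcripts behind the FPKM values.
Gad1 forward: ctgtagagacaccctgaagta
Gad1 reverse: agccattcaccagctaaac
Tfap2b forward: gcaacatctctgctcctatc
Tfap2b reverse: ctgccctttctactcctttc
Slc6a9 forward: tccagggtctctatcctttg
Slc6a9 reverse: cccttctttccctccataaac

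The Gad1 primers matched 6 of 8 GENCODE transcripts of the gene and spanned coding exons 5 and 6 of Gad1-201 (chr2:70574277-70579177, GRCm38). The Tfap2b primers matched 1 of 5 transcripts, Tfap2b-201, in the 3′ UTR of its last exon (chr1:19236360-19236452). The Slc6a9 primers matched 2 of 12 transcripts, also in the 3′ UTR (chr4:117868844-117868950).

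In retina every one of the 9 genes was above 1 FPKM, whereas in mNRPCs 3 were. Tfap2a, Slc6a9 and Gad2 were the genes at a measurable level in mNRPCs. Gad1, Slc32a1 and Calb2 were at 3 estimated fragments or fewer in mNRPCs, and Tfap2b, Chat and Th were listed at 0. On the log2 ratio of (FPKM + 1), mNRPC over retina, 7 of the 9 genes were at least 2-fold lower in mNRPCs, 1 (Tfap2a) was at least 2-fold higher and 1 (Slc6a9) lay within 2-fold. Among all 13780 genes that reached 1 FPKM in either library, 30.0% were lower by this rule and 24.5% were higher. With both libraries brought to the same FPKM sum, these shares were 42.4% and 18.4%, and 8 of the 9 genes were lower. The median log2 ratio of the 9 genes was −2.21, against −0.12 for all genes compared. With low levels raised to the 3-fragment limit and nothing added before the logarithm, the medians were −4.58 and −0.11.

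**Figure D1:**
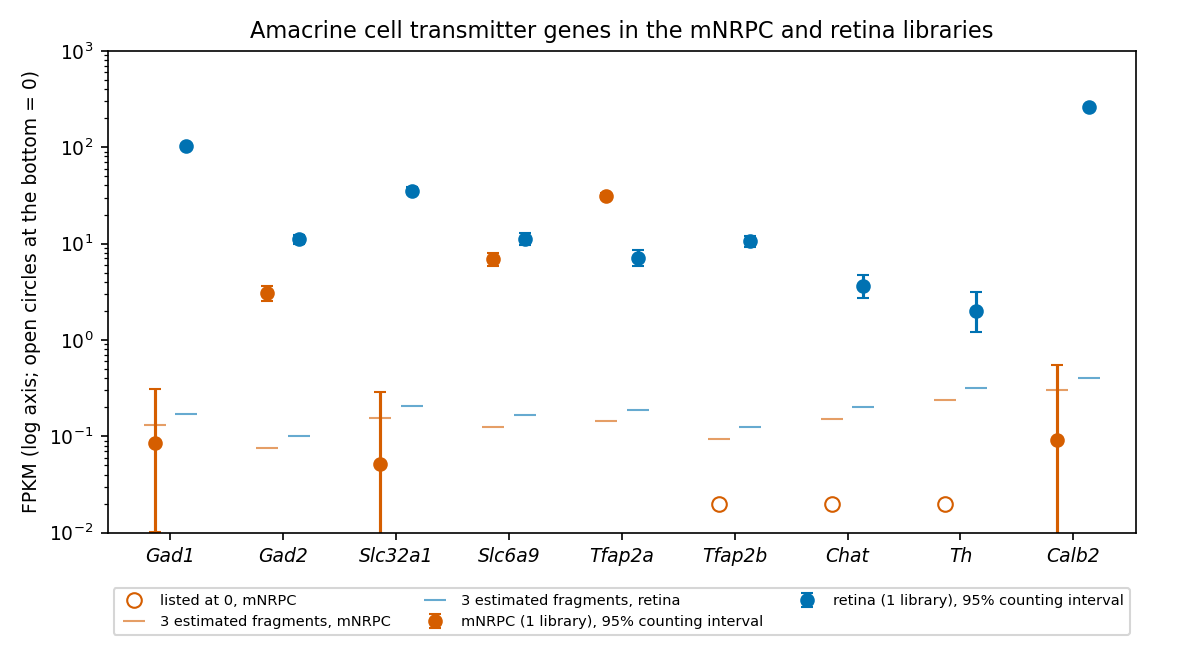
Levels of the 9 amacrine cell genes in FPKM on a log axis, with 1 point per library (mNRPC orange, retina blue), bars for 95% counting intervals that are cut at the foot of the axis, and short dashes at the level worth 3 estimated fragments. In mNRPCs the points of Tfap2a, Slc6a9 and Gad2 lie above that level, and open circles show Tfap2b, Chat and Th, which were listed at 0.

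The order of the levels differed between the libraries. In retina Calb2 was highest at 260 FPKM (95% interval 249 to 272), above 98.5% of the genes of at least 1 FPKM. Next came Gad1 at 103 FPKM (98.3 to 108) and Slc32a1 at 35.5 FPKM (32.5 to 38.7). Slc6a9, Gad2 and Tfap2b followed at 11.2, 11.1 and 10.6 FPKM, which overlapped within counting error, and Tfap2a was at 7.08 FPKM (5.83 to 8.52). The lowest were Chat at 3.64 FPKM (2.73 to 4.74) and Th at 1.99 FPKM (1.20 to 3.11), whose intervals overlapped. In mNRPCs Tfap2a led at 31.3 FPKM (28.9 to 33.8), above 75% of the genes of at least 1 FPKM, followed by Slc6a9 at 6.91 FPKM (5.90 to 8.05) and Gad2 at 3.05 FPKM (2.53 to 3.65). As retina is a mixture of cell types, fewer cells of a class and less RNA per cell cannot be told apart in these values.

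The genes of GABA synthesis were compared first. Gad1 reached 103 FPKM in retina and 0.0858 FPKM (1.98 estimated fragments) in mNRPCs. The retina level was 1201 times that in mNRPCs, with a 95% counting interval of 331 to 10043. Its paralog Gad2 reached 11.1 FPKM in retina and 3.05 FPKM (121 estimated fragments) in mNRPCs, so that mNRPCs held 27.5% of the retina level (log2 ratio −1.58, counting SE 0.12). In retina Gad1 was therefore far above Gad2, and in mNRPCs Gad2 was the GABA enzyme gene with a detectable level. Slc32a1, whose product loads both GABA and glycine into synaptic vesicles, reached 35.5 FPKM in retina and 0.0521 FPKM (1.01 estimated fragments) in mNRPCs, a ratio of 680 (95% counting interval 122 to 26468).

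The other genes that handle GABA were also lower or near the limit. Slc6a11 and Slc6a13, which encode GABA transporters, were listed at 0 in mNRPCs, with 51.6 and 3.36 FPKM in retina. Abat, which breaks GABA down, was at 0.0874 and 21.5 FPKM (log2 ratio −4.37), with the mNRPC value under the 3-fragment limit. Aldh5a1, a mitochondrial enzyme gene that is not specific to GABA neurons, stood nearer to retina at 3.66 and 7.70 FPKM (log2 ratio −0.90). It was past 2-fold lower on the common FPKM sum (−1.44) and with a pseudocount of 0.1 FPKM (−1.055). Of the 9 genes of GABA synthesis, uptake and breakdown, with Gad1, Gad2 and Slc32a1 among these, 8 were lower, none was higher and 1 was within 2-fold.

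The glycine transporter gene Slc6a9, which encodes GlyT1 and marks glycinergic amacrine cells in retina, was at 6.91 FPKM in mNRPCs and 11.2 FPKM in retina. Its log2 ratio was −0.63 with a counting SE of 0.14, and mNRPCs held 61.6% of the retina level. With both libraries at the same FPKM sum it crossed the 2-fold threshold (−1.14). Measured from the all-gene median it was at −0.51 as deposited and at −0.46 on the common sum. All of the Slc6a9 signal was on a single curated transcript, NM_008135.4, which corresponds to Slc6a9-201, a transcript that the primers above match. Slc6a5, which encodes the neuronal transporter GlyT2, was listed at 0 in mNRPCs, with 5.04 FPKM in retina. That retina level was on predicted rows, since the log2 ratio of −2.59 became 0 with curated rows only.

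Genes of glycine turnover, which dividing and non-neuronal cells also use, went both ways. Shmt1 and Shmt2, which interconvert serine and glycine, reached 8.98 and 77.0 FPKM in mNRPCs, and in retina 0.663 and 18.7 FPKM (log2 ratios 2.59 and 1.98). Of the glycine cleavage system, Gcsh was higher in mNRPCs at 51.6 against 24.1 FPKM (1.07), Gldc was lower at 1.19 against 6.75 FPKM (−1.82), and Amt was lower at 7.58 against 23.6 FPKM (−1.52). Dld, which this system shares with other complexes, was at 71.3 and 87.7 FPKM (−0.29). On the common FPKM sum Gcsh came within 2-fold (0.58), as did Amt with curated rows only (−0.96). The list of 10 glycine genes had 9 that could be compared, of which 3 were higher, 4 lower and 2 within 2-fold. All 6 markers of cycling cells were higher in mNRPCs, with a summed level of 447 FPKM against 30.0 FPKM in retina, of which Ccna2 made up 27.7 FPKM. The part of cycling cells in the values of the glycine genes was not tested.

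**Figure D2:**
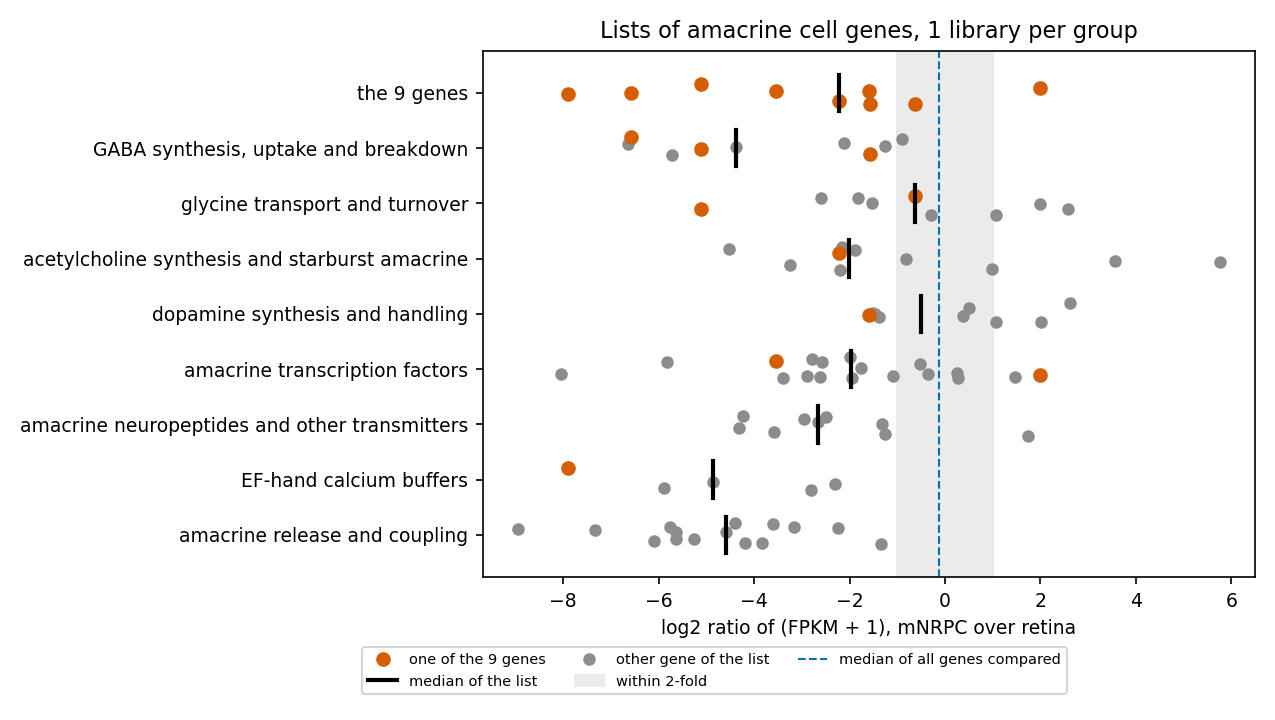
Log2 ratios of (FPKM + 1), mNRPC over retina, for the genes of 8 lists of amacrine cell biology and for the 9 genes themselves. Each point is a gene of at least 1 FPKM in either library, black bars are list medians, the grey band is 2-fold either way and the dashed line is the median of all genes compared (−0.12). The GABA and calcium buffer lists lie to the left, while the glycine and dopamine lists spread to both sides.

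The defining enzyme genes of the cholinergic and dopaminergic classes, Chat and Th, were both listed at 0 in mNRPCs. Chat, which encodes the enzyme that makes acetylcholine, was listed at 0 in mNRPCs, with 3.64 FPKM in retina, an estimated 54.1 fragments. The 3-fragment limit of Chat in mNRPCs was 0.152 FPKM. The vesicular acetylcholine transporter gene Slc18a3, which lies within the Chat locus, and the choline transporter gene Slc5a7 were likewise listed at 0 in mNRPCs, with 2.67 and 3.60 FPKM in retina. With curated rows only, the log2 ratio of Slc5a7 went from −2.20 to −0.66, within 2-fold. Ache, the gene of acetylcholinesterase, was at 0.0394 and 23.0 FPKM (log2 ratio −4.53), with the mNRPC value under the 3-fragment limit. The related esterase gene Bche went the other way, at 110 FPKM in mNRPCs and 1.05 FPKM in retina (log2 ratio 5.76).

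Several further genes of starburst amacrine cells are not specific to these cells. Sox2, which progenitors and Müller glia also use, was at 231 FPKM in mNRPCs and 18.5 FPKM in retina (3.57). Megf10, a receptor gene of starburst spacing, was at 9.39 and 4.21 FPKM (log2 ratio 1.0, just under the 2-fold threshold, 1.1 with a pseudocount of 0.1 FPKM and 0.59 on the common FPKM sum), and its relative Megf11 was at 0.0758 and 3.81 FPKM (−2.16). The mNRPC value of Megf11 was under the 3-fragment limit. The Megf11 call also rested on predicted rows, as with curated rows only its log2 ratio was −0.47. Isl1, a transcription factor gene that bipolar and ganglion cells share, was at 2.25 and 29.9 FPKM (−3.25). Slc44a1, a broadly used choline transporter gene, was at 10.6 and 19.3 FPKM (−0.81). Its log2 ratio turned to 0.42 on its highest transcript alone and was past 2-fold lower on the common FPKM sum (−1.33). Of the 10 cholinergic and starburst genes compared, 2 were higher, 6 lower and 2 within 2-fold.

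Th, which encodes tyrosine hydroxylase, the first enzyme of dopamine synthesis, was listed at 0 in mNRPCs, with 1.99 FPKM in retina, an estimated 19.0 fragments. The limit of 3 fragments for Th in mNRPCs was 0.238 FPKM. The vesicular monoamine transporter gene Slc18a2 was listed at 0 in mNRPCs and at 1.82 FPKM in retina. Slc6a3, the dopamine transporter gene, was listed at 0 in mNRPCs and had an estimated 2.58 fragments in retina, so it was not detectable in either library. Ddc, which makes dopamine from L-DOPA, had 0.907 FPKM in mNRPCs (12.4 estimated fragments) against 0.0961 FPKM in retina, under 1 FPKM in both. Its log2 ratio of 0.80 rested on predicted transcript rows, as with curated rows only it was −0.05.

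Enzymes that supply or clear cofactors and amines in many cell types were at measurable levels in mNRPCs. For tetrahydrobiopterin, the cofactor of tyrosine hydroxylase, Gch1 had 5.17 FPKM in mNRPCs and was at 0 in the retina list, Pts was at 13.1 and 35.8 FPKM (log2 ratio −1.39), Spr at 54.3 and 25.2 FPKM (1.08) and Qdpr at 82.6 and 63.1 FPKM (0.38). Of the enzymes that break dopamine down, Maoa was at 26.3 and 5.75 FPKM (2.02) and Maob at 0.318 and 2.67 FPKM (−1.48). Nr4a2, a transcription factor gene of dopamine neurons, was at 0.624 and 3.49 FPKM (−1.47). Spr came within 2-fold on the common FPKM sum (0.59) and Nr4a2 with curated rows only (−0.60), while Qdpr turned to −0.12 on the common sum. In this list 3 of 10 genes compared were higher, 5 lower and 2 within 2-fold.

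The 2 AP-2 transcription factor genes went opposite ways. Tfap2a reached 31.3 FPKM (658 estimated fragments) in mNRPCs and 7.08 FPKM (112 estimated fragments) in retina, which is 4.42-fold higher in mNRPCs by the FPKM alone. With 1 FPKM added to both, the log2 ratio was 2.0 with a counting SE of 0.13. Tfap2b was listed at 0 in mNRPCs, with 10.6 FPKM in retina, an estimated 255 fragments. Its 3-fragment limit in mNRPCs was 0.0938 FPKM. In retina both genes were thus detected, with Tfap2b the higher, and in mNRPCs Tfap2a alone of the pair was detected. Of the other AP-2 genes, Tfap2c was listed at 0 in mNRPCs, with 5.17 FPKM in retina, and Tfap2d and Tfap2e were under 1 FPKM in both libraries.

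The transcripts behind these sums were compared next, with the limit that the estimation divides reads shared by transcripts. All 5 Tfap2a transcripts were above 0 in both libraries. NM_011547.4 held 59.0% of the gene in mNRPCs and 43.9% in retina, and NM_001122948.2 held 24.9% and 29.5%. The predicted transcript XM_006516902.2 held 5.70% in mNRPCs and 11.3% in retina. All 6 Tfap2b transcripts were above 0 in retina and at 0 in mNRPCs. NM_009334.3, which corresponds to Tfap2b-201 and carries the primer sites shown above, held 54.7% of Tfap2b in retina. The other Tfap2b transcripts of at least 10% were NM_001025305.2 with 18.4%, XM_006495494.2 with 11.9% and NM_001286340.1 with 10.8%. For Gad1, NM_008077.4 held 82.6% of the retina sum and XM_006498766.2 held 15.7%, and the mNRPC value was on NM_008077.4 alone. Every other gene of the 9 had its whole signal on a single transcript.

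**Figure D3:**
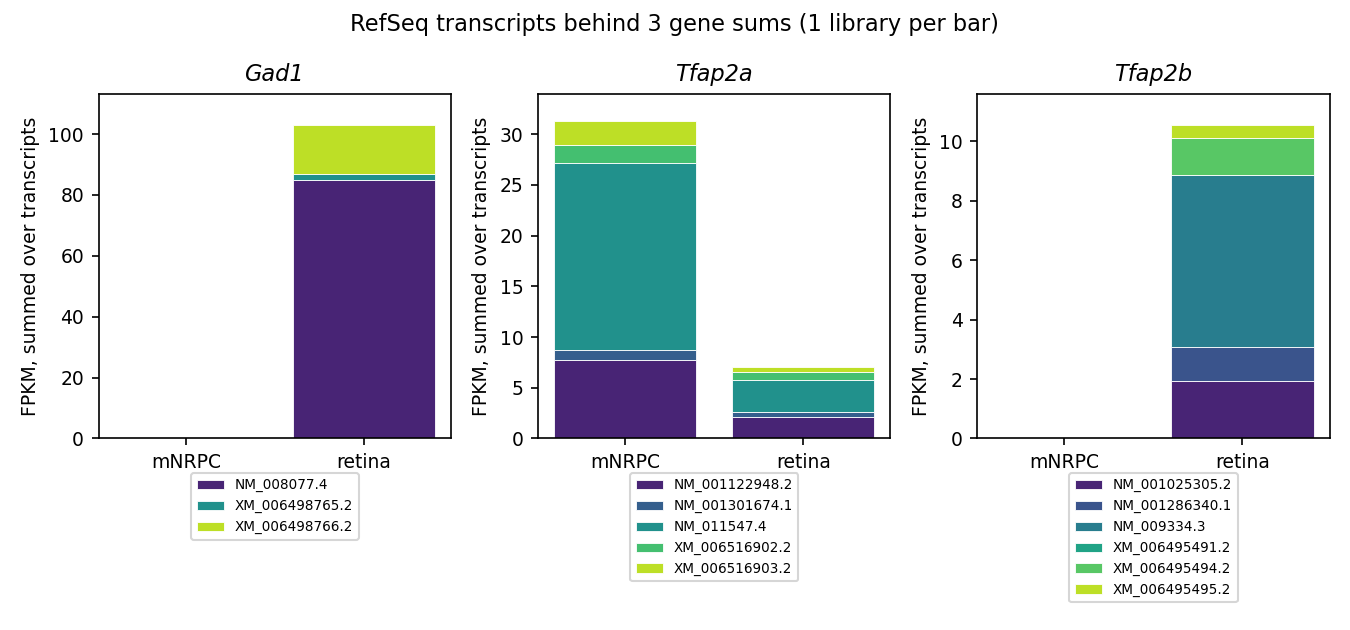
FPKM of the RefSeq transcripts of Gad1, Tfap2a and Tfap2b, stacked in 1 bar per library from 0, with a separate axis for each gene. Tfap2a shows all 5 transcripts in both libraries and a taller mNRPC bar (31.3 against 7.08 FPKM), while the mNRPC bars of Gad1 and Tfap2b are at or near 0.

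Other transcription factor genes of amacrine fate were mostly lower in mNRPCs. Of the 22 listed besides Tfap2a and Tfap2b, 16 were compared, and 1 was higher, 11 lower and 4 within 2-fold. The higher gene was Tcf4, a broadly expressed bHLH gene, at 48.1 FPKM in mNRPCs and 16.7 FPKM in retina (1.47). Tcf4 came within 2-fold on its highest transcript alone (0.82) and on the common FPKM sum (0.99). The 4 within 2-fold were homeobox genes that retinal progenitors share with amacrine cells. Pax6 was at 123 and 101 FPKM, Six3 at 39.7 and 33.2 FPKM, Meis2 at 15.9 and 23.2 FPKM, and Prox1 at 10.7 and 13.8 FPKM. The log2 ratios of Pax6 and Six3 changed sign on the common FPKM sum, from 0.28 to −0.23 and from 0.25 to −0.25. Meis2 was past 2-fold lower on that sum (−1.03) and at 0.05 when accessions were matched with their version, and Prox1 was past 2-fold lower on its highest transcript alone (−1.04).

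The bHLH genes of neuronal differentiation were lower. Neurod1, which photoreceptors also use, was listed at 0 in mNRPCs, with 263 FPKM in retina, and Neurod2 and Neurod6 were listed at 0 against 6.45 and 1.13 FPKM. Neurod4 was at 0.0263 FPKM in mNRPCs against a retina level of 57.3 FPKM (log2 ratio −5.83). Bhlhe22 kept a measurable level, at 1.89 and 16.2 FPKM (−2.57). Barhl2 and Prdm13, factors of amacrine subtype fate, were listed at 0 in mNRPCs, with 5.93 and 2.37 FPKM in retina. Ebf1 was at 0.0133 and 2.91 FPKM (−1.95) and Ebf3 at 0.0296 and 9.88 FPKM (−3.40), and Lhx9 was at 0.114 and 3.39 FPKM (−1.98). The mNRPC values of Neurod4, Ebf1 and Ebf3 were under the 3-fragment limit and are not measured levels. Ptf1a and Foxn4, which act in amacrine and horizontal precursors, were under 1 FPKM in both libraries.

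Calb2 was the most abundant of the 9 genes in retina. Against its 260 FPKM there, mNRPCs had 0.0919 FPKM (0.907 estimated fragments), and its log2 ratio was −7.90. The other EF-hand calcium buffer genes that could be compared were lower too. Calb1, the gene of calbindin, was at 0.237 and 35.1 FPKM (log2 ratio −4.87), and Cabp5, of bipolar cells, was at 0.0399 and 60.9 FPKM (−5.89). Pvalb was listed at 0 in mNRPCs against 3.93 FPKM in retina, and S100b was at 0.0875 and 6.60 FPKM. These 4 genes, besides Calb2, were all under 1 FPKM in mNRPCs, and Cabp5 and S100b were under the 3-fragment limit there.

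Neuropeptide and other transmitter genes of amacrine subclasses gave 8 lower genes and 1 higher among 9 compared. Npy, Cck, Tac1, Vip and Sst, which mark peptidergic amacrine classes, were listed at 0 in mNRPCs, with 18.9, 17.9, 11, 6.72 and 4.63 FPKM in retina. Gal and Adcyap1 were also listed at 0 in mNRPCs, against 1.48 and 1.40 FPKM. Slc17a8, the vesicular glutamate transporter gene of a further amacrine class, was at 0.0657 and 5.71 FPKM (−2.65). Its mNRPC value was under the 3-fragment limit. The 2-fold calls ended for Tac1 when accessions were matched with their version (−0.01) and for Adcyap1 with curated rows only (−0.94). The higher gene was Penk, which encodes the precursor of enkephalins, at 4.56 FPKM in mNRPCs and 0.656 FPKM in retina (1.75). Nos1 was listed at 0 in both libraries.

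Several of the 9 genes are not confined to amacrine cells, and markers of other cell types moved with them. Horizontal cells also use Tfap2a, Tfap2b and Slc32a1. Of the 5 horizontal cell markers outside the 9 genes, Lhx1, Onecut1 and Onecut3 were listed at 0 in mNRPCs, and their summed level was 0.359 FPKM in mNRPCs and 38.1 FPKM in retina, of which Calb1 made up 35.1 FPKM. Ganglion cells use Calb2, and all 10 ganglion cell markers were lower in mNRPCs, with sums of 4.82 and 568 FPKM. All 8 bipolar cell markers were lower as well (5.42 and 620 FPKM). Müller glia take up and break down GABA and glycine, and 6 of their 7 markers were lower in mNRPCs, with sums of 49.0 and 1803 FPKM, while Sox9 was higher at 13.2 against 3.28 FPKM (log2 ratio 1.73). The part of these cells in the values of the 9 genes was not tested.

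Rod genes set a scale for the lowest mNRPC values. The 10 rod markers, which together reached 21554 FPKM in retina, were at between 0.00702% and 0.0629% of their retina level in mNRPCs, with a median of 0.0418%. Of these rod genes 3 had fewer than 3 estimated fragments in mNRPCs, and the lowest of the range is among them, so its lower end is not a measured level. In mNRPCs Calb2 was at 0.0353% of its retina level, Gad1 at 0.0833% and Slc32a1 at 0.147%, each on fewer than 3 estimated fragments. Gad2, Slc6a9 and Tfap2a were at 27.5%, 61.6% and 442% of retina. Calb2, Gad1 and Slc32a1 rested on too few fragments to be placed within or above the range of the rod genes. Gad2, Slc6a9 and Tfap2a lay above that range on more than 100 estimated fragments each. The source of the low values was not tested.

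**Figure D4:**
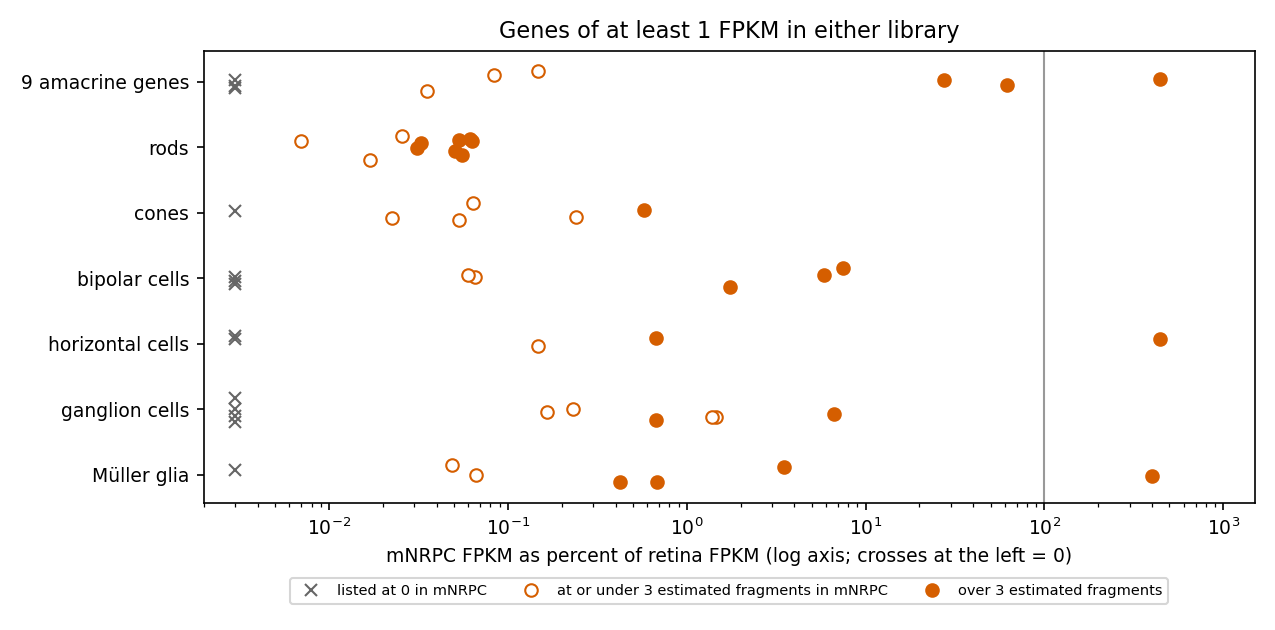
mNRPC level as a percentage of the retina level, on a log axis, for the 9 amacrine cell genes and for markers of 6 other retinal cell types. Filled circles are genes over 3 estimated fragments in mNRPCs, open circles are at or under that limit, and crosses are listed at 0. Gad2, Slc6a9 and Tfap2a lie far to the right of the rod genes, which sit between 0.00702% and 0.0629%. Tfap2a also appears among the horizontal cell markers.

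Tfap2a is also a gene of neural crest and its derivatives, so markers of crest and mesenchyme were set beside it. Among the 8 markers, 6 were compared, and 4 were higher in mNRPCs, none was lower and 2 were within 2-fold. Their summed level was 551 FPKM in mNRPCs and 8.38 FPKM in retina. Col3a1 was at 450 and 0.311 FPKM and Twist1 at 83.7 and 0.185 FPKM. Sox10, a gene of neural crest, and Foxd1 were listed at 0 in mNRPCs. They were not compared, as they were at 0.0606 and 0.414 FPKM in retina. Pdgfrb was at 4.49 and 1.24 FPKM (log2 ratio 1.29) and Acta2 at 10.1 and 4.39 FPKM (1.05), just past 2-fold. The 2 within 2-fold were Col1a1 and Pdgfra. These markers were not put through the common FPKM sum or the other alternatives. The part of crest or mesenchyme cells in the Tfap2a level was not tested.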

How the data were processed

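Total RNA of mNRPCs and of retina was sequenced, 1 library per group, with groups taken from the labels. The deposited values were FPKM, given by the authors per RefSeq transcript. The study's methods name Bowtie 2 and eXpress, while the submitters' processing notes name TopHat2 2.0.10, TopHat and build GRCm38.p3. The annotation release is not given in the sources used here. An estimation that shares reads among transcripts can misplace a gene. Rps19, used by every cell, stood at 10.2 FPKM in mNRPCs and 0.0586 FPKM in retina, and the cause of that low retina value was not tested. Values under 1e-06 were set to 0.

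Of 106754 rows, 69.6% were matched without version to a symbol in RefSeq (GRCm38.p6) or GENCODE M21; these held 93.2% of the mNRPC and 89.9% of the retina FPKM, so unmatched transcripts of a gene would be missed. Rows were summed per gene. Following the study, 1 was added before log2. Genes of at least 1 FPKM in either library were compared at a 2-fold threshold. Fragments were estimated from FPKM, GENCODE length and the level at which single fragments gather in transcripts of at least 1500 bp, and were 6.31e+06 to 6.89e+06 in mNRPCs and 4.86e+06 to 5.25e+06 in retina over 3 minimum lengths. Ratios of the 9 genes that rest on 1 to 3 estimated fragments carry a 95% counting interval from the beta distribution. The 9 genes and the lists were chosen with earlier results of these data known. All 9 genes and, of each list, the genes of at least 10 FPKM or 2-fold apart and the partners of each transmitter were named, apart from some that are not reported here. The depth estimate, the 2-fold calls and a scaling factor between libraries were tested on simulated data with 1 row per gene. That simulation did not cover reads shared among transcripts, the naming and summing of rows or the counting intervals. Python 3.11.15, numpy 2.4.6, pandas 2.3.3 and scipy 1.17.1 were used.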

Additional observations from a re-analysis of the deposited data

How the results depend on the processing

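The direction of all 9 genes was kept under every alternative for the pseudocount, scaling, rows and matching in which a gene had a value. Tfap2b, Chat and Th were at 0 in mNRPCs on every row, so no alternative could turn their direction. Gad1, Slc32a1 and Calb2 had at most 3 estimated fragments there on a single row each, so their direction could hardly turn either. The alternatives therefore bear on the direction of Gad2, Slc6a9 and Tfap2a. Over the alternatives, the log2 ratio of Tfap2a ranged from 1.5 to 2.25, that of Gad2 from −2.16 to −1.51 and that of Slc6a9 from −1.14 to −0.56. A pseudocount of 0.1 FPKM moved the median of the 9 genes from −2.21 to −5.22, since ratios of genes near 0 are no longer held back. Matching accessions with their version left 4 genes lower among 6, because Gad1, Th and Calb2 then had no row. At a threshold of 4-fold 5 genes were lower and 0 were higher, as the log2 ratio of Tfap2a with 1 FPKM added lay just under it. Its FPKM alone were 4.42-fold apart. Setting levels to the limit of 3 fragments, an alternative added after seeing the data, gave a median of −4.58. Rescaling to a common sum moved the median of all genes from −0.12 to −0.68. Relative to it the 9 genes had a median of −2.09 as deposited and −2.55 after rescaling, and Tfap2a was at 2.12 and 2.26. Of 69 values of single genes among the 9, 47 stayed within counting error and 22 moved further. Part of the 47 could not move. Gad2, Slc32a1, Slc6a9, Chat, Th and Calb2 had their whole signal on a single curated row. Their values with curated rows only and on the highest transcript alone were thus fixed in advance. Of the other listed genes 65 were past 2-fold, of which 0 changed sign and 12 came within 2-fold under at least 1 alternative. A further 7 genes that lay within 2-fold changed sign under at least 1. Depth limits the 6 genes at or under 3 fragments in mNRPCs, whose levels there rest on few or no fragments. No paired analysis was possible because there was a single mNRPC and a single retina library.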

Other observations

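Genes of conventional synapses and of amacrine coupling were lower in mNRPCs for all 15 listed when every transcript row was summed. With curated rows only, Syt2, at 0 in mNRPCs and 3.72 FPKM in retina over all rows, had a log2 ratio of 0. Snap25, of the vesicle fusion machinery, was at 0.482 FPKM in mNRPCs and 730 FPKM in retina (log2 ratio −8.95), and the complexin genes Cplx1 and Cplx3 were listed at 0 against 52.9 and 159 FPKM. Stx1a, long used as an amacrine marker, was at 0.0248 and 1.60 FPKM (−1.34). Gjd2, the gene of the gap junction protein that couples AII amacrine cells, was at 0.0593 and 39.4 FPKM (−5.25), and Dab1, a marker of these cells, was listed at 0 against 7.91 FPKM. The mNRPC values of Stx1a and Gjd2 were under the 3-fragment limit. Vamp2 and Syt1 kept levels above 1 FPKM in mNRPCs, at 27.3 FPKM (retina 404) and 2.41 FPKM (retina 233).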
